A study of Mus musculus with 8 samples.

Results

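The ligands and receptors of TGF-beta and activin, with a pair of genes that restrain the signal, were followed in fibroblasts exposed to media from cardiomyocytes. The set held 10 genes of 16590 with a named probe, namely the ligand genes Tgfb1, Tgfb2, Tgfb3, Inhba and Inhbb, the receptor genes Tgfbr1, Tgfbr2 and Tgfbr3, and the feedback genes Skil and Pmepa1. Members were found by their gene symbols, which gave 16 of 25697 probes. Of these probes 13 were detected on at least 2 arrays, and 9 of the 10 genes could be tested, the exception being Inhbb.

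RNA came from NIH 3T3 fibroblasts, a line from mouse embryos, kept for 24 h in 1 of 3 media. The cardiomyocyte media group (3 arrays) received Claycomb media transferred from HL-1 cells, a contracting line derived from mouse atrium. The media supernatant group (2 arrays) received what stayed in solution when such media was ultracentrifuged for 2 h, after slower spins had removed cell debris, and the unused media group (3 arrays) received fresh Claycomb media. All groups thus shared the cell line and the base media, and no array of centrifuged unused media was analysed, so centrifugation itself and the removal of pelleted material cannot be told apart. By the paper's general method RNA of a group came from 3 wells, while media supernatant had 2 arrays, with no word on separate experiments. The p-values then cover only the spread between these arrays, which may be technical.

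TGF-beta ligands are secreted in a latent form and, once released, bind the type II receptor, which recruits and phosphorylates the type I receptor, and the type I receptor in turn phosphorylates SMAD proteins that enter the nucleus and switch on target genes. Activins, dimers of inhibin beta subunits, use receptors of their own but the same SMAD proteins. In fibroblasts both ligands are known for raising matrix production and the contractile myofibroblast state.

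Group and chip were partly confounded. The 3 arrays of unused media shared chip 1 with replicate 1 of either treatment, while chip 2 held the other 3 arrays, from cardiomyocyte media (replicates 2 and 3) and media supernatant (replicate 2). Background was 88.9 to 93.1 fluorescence units on chip 1 and 47.0 to 48.1 on chip 2, and 10545 to 11758 probes were detected on an array. Values with chip as a block are therefore given for every tested member with cardiomyocyte media against unused media, and for the other member calls. For the gene lists they are given where they alter a call. Of 10 fibroblast marker genes with a probe, all were tested and 9 were detected on every array, with summed signals of 28291 to 36128 in cardiomyocyte media, 26695 to 32354 in media supernatant and 23300.4 to 28529 in unused media. Among the fibroblast markers 2 rose and none fell with cardiomyocyte media, where 4.01% of all genes tested were called higher and 4.36% lower. With the supernatant 1 rose and 1 fell, where 0.732% of all genes tested were called higher and 1.44% lower. Of 14 cardiomyocyte markers with a probe, 8 were detected on no array, among them Tnni3, Actc1 and Ryr2. The 6 tested were Myh6, Myl7, Myl4, Nppa, Mb and Gja5, of which 1 was detected on every array. None of the 6 passed in limma for either treatment against unused media, nor at an unadjusted p under 0.05 (0 of 6). Of all genes tested, 25.1% reached that unadjusted level with cardiomyocyte media and 11.9% with the supernatant, so a count over 6 genes says little. Their summed signal was 225 to 274 in cardiomyocyte media, 151 to 192 in media supernatant and 199 to 385 in unused media. Macrophage and endothelial markers were detected little: only Cd14 among them could be tested, at 55.0 to 115 in cardiomyocyte media, 107 to 129 in media supernatant and 109 to 121 in unused media, and it passed in neither comparison with unused media, although it reached an unadjusted p under 0.05 with cardiomyocyte media. In RNA of whole cultures, fewer cells that express a gene and less RNA of it per cell cannot be told apart.

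The sequences before 1 annotated start each of Tgfb2 and Inhba are shown because these ligand genes carried the largest differences among the members. They are the 250 bases before the start used in the RefSeq promoter table (GRCm38.p6), at chr1:186705990-186706239 (minus strand, read along the gene) for Tgfb2 and chr13:16011601-16011850 (plus strand) for Inhba. Both starts are internal: they lie 3708 bases (Tgfb2) and 7595 bases (Inhba) inside the annotated gene, counted from its outermost start, whose upstream sequence was not used here. Capitals mark a SMAD box (CAGACA) and the 5 letters of a cyclic AMP response element core (TGACG, here as CGTCA on the other strand); the Inhba stretch has no capitals.
Tgfb2: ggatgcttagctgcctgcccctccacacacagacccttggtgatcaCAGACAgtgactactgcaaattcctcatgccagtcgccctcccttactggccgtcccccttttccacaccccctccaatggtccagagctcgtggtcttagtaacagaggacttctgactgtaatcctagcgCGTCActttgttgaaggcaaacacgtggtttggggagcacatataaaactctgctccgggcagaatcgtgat
Inhba: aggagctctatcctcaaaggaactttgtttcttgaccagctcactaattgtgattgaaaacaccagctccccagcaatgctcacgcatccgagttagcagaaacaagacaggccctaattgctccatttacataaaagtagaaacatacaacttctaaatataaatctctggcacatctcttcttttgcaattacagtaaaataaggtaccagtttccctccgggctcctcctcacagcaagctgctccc
Within 250 bases before and 50 after the start, the Tgfb2 window held 1 SMAD box, at -204 to -199, and 1 such core, at -72 to -68, counted with -1 as the last base before the start. A SMAD box was present in 21.0% of all 32851 promoter windows of that length, and the core in 20.8%. The Inhba window held neither, nor an AP-1 site (TGANTCA, in 7.81% of windows), a full cyclic AMP response element (TGACGTCA, 1.79%) or a GC box (GGGCGG, 35.7%), with both strands searched. The full element contains the core, so these motifs overlap. Windows were given for 6 of the 10 genes, 7 windows in all, since Tgfbr1 had a pair of starts, of which the second lies 32994 bases inside the gene; the other windows lie before the outermost start, apart from those of Tgfb2 and Inhba. That of Tgfb1 held 6 GC boxes, those of Inhbb and of the first Tgfbr1 start held 1 and 2, the window of the second Tgfbr1 start held 1 SMAD box, and the Tgfbr2 window held none of the 5 motifs. These matches describe letters only.

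With cardiomyocyte media, 5 of the 9 tested members rose and none fell: the ligand genes Inhba and Tgfb2, the receptor genes Tgfbr1 and Tgfbr2, and Skil. With the supernatant, 3 rose and none fell: Tgfb2, Skil and Pmepa1. Of these Pmepa1 was detected on no array of unused media, and so entered the test only through the treated groups. Set directly against cardiomyocyte media, the supernatant group had 1 member lower, Inhba, and none higher (1 higher, Pmepa1, at an unadjusted p under 0.05). Over all 8885 genes tested, 4.01% were called higher and 4.36% lower with cardiomyocyte media against unused media, 0.732% higher and 1.44% lower with the supernatant against unused media, and 1.76% higher and 3.14% lower with the supernatant against cardiomyocyte media. The median log2 fold change of the 9 members was 0.71 with cardiomyocyte media and 0.54 with the supernatant, each against unused media, where the medians of all genes were -0.01 and -0.00. Both of those comparisons use the same 3 arrays of unused media. All calls are from limma with Benjamini-Hochberg adjustment over all genes tested, at an adjusted p under 0.05. Signals are in fluorescence units on the linear scale after background correction and quantile normalization, and fold changes are on the scale of log2(signal + 16), which understates the change of dim genes.

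**Figure D1:**
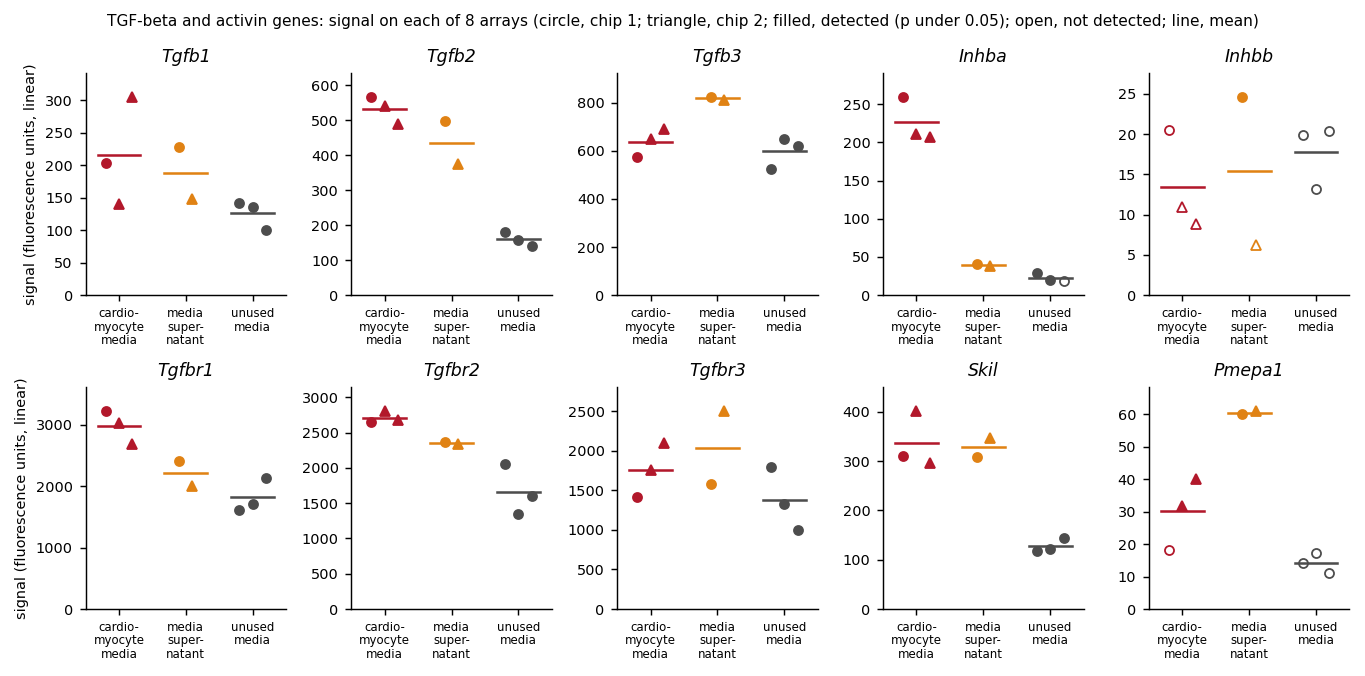
Signal of each of the 10 genes (probe with the highest mean, linear fluorescence units, own axis for each gene) on the arrays of cardiomyocyte media, media supernatant and unused media, with a point for each array and a line at the group mean. Inhba stood at 208 to 259 in cardiomyocyte media and at 40.7 or less elsewhere, whereas Tgfb2 and Skil were higher in both treated groups than on any array of unused media.

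Among the ligand genes, Inhba, which encodes the beta A subunit of activin A, showed the largest difference. Its signal was 259, 211 and 208 in cardiomyocyte media, 40.7 and 38.1 in media supernatant, and 28.6, 20.1 and 18.2 in unused media. All arrays of cardiomyocyte media lay far above the other 5, and the lowest array of unused media was not detected. Inhba rose 6.34-fold with cardiomyocyte media (log2 fold change 2.66, SE 0.17, adjusted p = 7.19e-06). With the supernatant against unused media the value was 0.54 (95% interval 0.11 to 0.97, adjusted p = 0.290), which did not pass although the arrays did not overlap. Against cardiomyocyte media the supernatant group was lower by 2.12 on the log2 scale (log2 fold change -2.12, SE 0.20, adjusted p = 1.20e-04). With chip as a block the value for cardiomyocyte media against unused media was 2.79, and within chip 1 it was 2.72.

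Tgfb2, the gene of the TGF-beta 2 ligand, rose with either treatment. Its signal was 567, 542 and 489 in cardiomyocyte media, 496 and 375 in media supernatant, and 180.3, 157 and 142 in unused media. Every treated array was above every array of unused media, and the treated groups overlapped each other. The rise was 3.13-fold with cardiomyocyte media (log2 fold change 1.64, SE 0.18, adjusted p = 1.76e-04) and 2.56-fold with the supernatant (1.36, SE 0.20, adjusted p = 0.00770). The supernatant group differed from cardiomyocyte media by -0.29 (95% interval -0.72 to 0.14, adjusted p = 0.587), so a loss of up to 0.72 or a gain of up to 0.14 on the log2 scale lies within its error. With chip as a block the values against unused media were 1.81 with cardiomyocyte media and 1.48 with the supernatant, and both calls held.

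The other TGF-beta ligand genes did not pass in any comparison. Tgfb1, which encodes the most widely expressed TGF-beta, had signals of 203, 139.7 and 305 in cardiomyocyte media, 227 and 148 in media supernatant, and 142, 135 and 99.6 in unused media. The spread within cardiomyocyte media was wide and replicate 2 lay within the range of unused media, while the supernatant arrays, at 148 and 227, lay above it. Its log2 fold change was 0.66 with cardiomyocyte media (SE 0.27, adjusted p = 0.157) and 0.51 with the supernatant (SE 0.30, adjusted p = 0.544). With chip as a block these were 0.81 and 0.62, and neither passed. Tgfb3, the gene of the TGF-beta 3 ligand, had signals of 574, 649.8 and 693 in cardiomyocyte media, 824 and 814 in media supernatant, and 527, 651 and 619 in unused media. Both supernatant arrays were above the other 6, but the log2 fold change of 0.45 against unused media (95% interval 0.04 to 0.85) did not pass (adjusted p = 0.371). With cardiomyocyte media it was 0.09 (95% interval -0.27 to 0.45), with overlapping arrays. With chip as a block the values of Tgfb3 were 0.01 with cardiomyocyte media and 0.39 with the supernatant, and neither passed.

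Inhbb, the gene of the beta B subunit that forms activin B, was detected on 1 of 8 arrays, replicate 1 of media supernatant. Its signals were 20.5, 11 and 8.82 in cardiomyocyte media, 24.6 and 6.27 in media supernatant, and 19.9, 13.2 and 20.3 in unused media. The groups overlapped, and the gene was not tested.

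Of the receptor genes, 2 of 3 passed, both with cardiomyocyte media. Tgfbr1 encodes the type I receptor, the kinase that phosphorylates SMAD proteins. Its brightest probe gave 3223, 3019 and 2679 in cardiomyocyte media, 2409 and 2005 in media supernatant, and 1616, 1713 and 2124 in unused media. All arrays of cardiomyocyte media were above all others, whereas the supernatant and unused groups overlapped. Tgfbr1 rose 1.64-fold with cardiomyocyte media (log2 fold change 0.71, SE 0.18, adjusted p = 0.0327), and with the supernatant the value was 0.28 (SE 0.20, adjusted p = 0.621).

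Tgfbr2 encodes the type II receptor, which binds the ligand first. Its signal was 2651, 2808 and 2684 in cardiomyocyte media, 2361 and 2343 in media supernatant, and 2050.3, 1346 and 1598 in unused media. The 3 groups did not overlap, and cardiomyocyte media was the highest. Tgfbr2 rose 1.65-fold with cardiomyocyte media (log2 fold change 0.72, SE 0.18, adjusted p = 0.0345). With the supernatant against unused media the value was 0.52 (95% interval 0.07 to 0.96, adjusted p = 0.350). Both receptor calls were close to the threshold. That of Tgfbr2 was lost when chip was a block (0.71, adjusted p = 0.0935), and also on removal of any of 6 single arrays, namely replicates 2 and 3 of cardiomyocyte media, 1 and 2 of media supernatant, and 2 and 3 of unused media (adjusted p up to 0.124). That of Tgfbr1 held with chip as a block (0.85, adjusted p = 0.0294) but was lost without replicate 2 or 3 of cardiomyocyte media or replicate 1 or 2 of unused media (adjusted p up to 0.110).

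Tgfbr3 encodes betaglycan, a co-receptor that presents TGF-beta 2 to the type II receptor. Its brighter probe gave 1419, 1751 and 2101 in cardiomyocyte media, 1575 and 2503 in media supernatant, and 1790.4, 1322 and 1004 in unused media. All 3 groups overlapped. The log2 fold change was 0.37 with cardiomyocyte media (SE 0.26, adjusted p = 0.384) and 0.57 with the supernatant (SE 0.29, adjusted p = 0.473). With chip as a block these were 0.02 and 0.30, and neither passed.

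**Figure D2:**
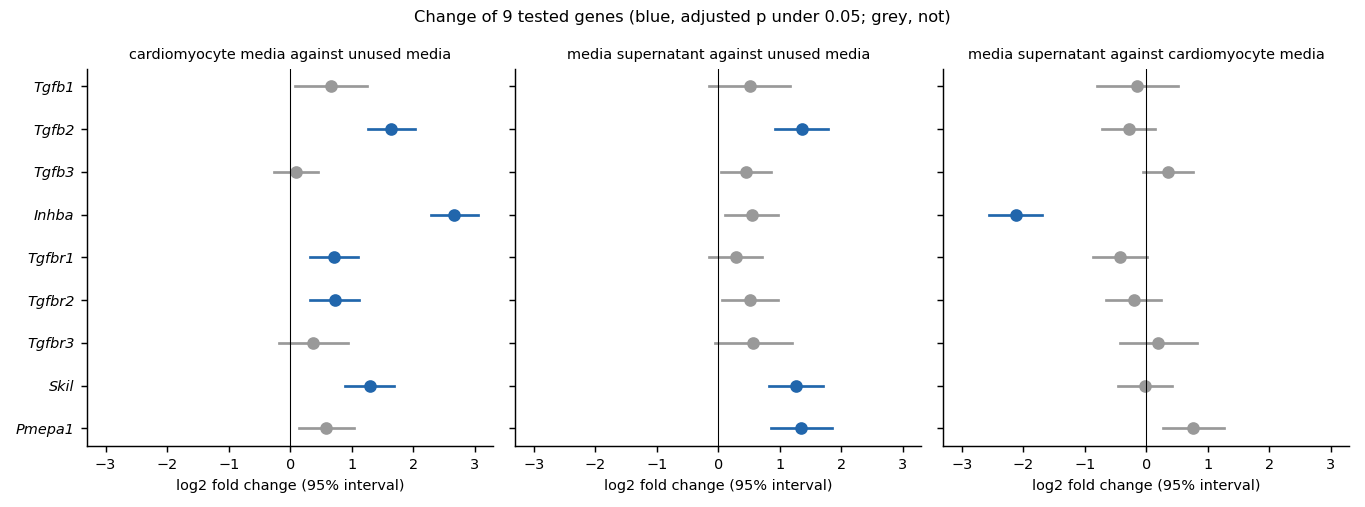
Log2 fold change (points) with its 95% interval (bars) for the 9 tested genes in the 3 comparisons, in blue where the adjusted p was under 0.05. Tgfb2 and Skil passed with both treatments, Inhba passed with cardiomyocyte media (2.66) and was lower in the supernatant group than in cardiomyocyte media (-2.12), and Pmepa1 passed in the supernatant group against unused media.

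Skil encodes SnoN, a repressor of SMAD complexes and itself a target of the pathway. Its brighter probe gave 311, 402 and 296 in cardiomyocyte media, 309 and 347 in media supernatant, and 117, 121 and 145 in unused media. The treated groups overlapped each other, and both were above all arrays of unused media. Skil rose 2.44-fold with cardiomyocyte media (log2 fold change 1.29, SE 0.18, adjusted p = 0.00102) and 2.40-fold with the supernatant (1.26, SE 0.20, adjusted p = 0.00932). The supernatant group differed from cardiomyocyte media by -0.03 (95% interval -0.46 to 0.41). With chip as a block the values were 1.19 and 1.19, and both calls held.

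Pmepa1 encodes a membrane protein that is induced by TGF-beta and holds SMAD proteins away from the receptor. It was dim, with signals of 18.2, 31.7 and 40.1 in cardiomyocyte media, 59.9 and 61.0 in media supernatant, and 14.2, 17.2 and 11.1 in unused media. It was not detected on any array of unused media, nor on replicate 1 of cardiomyocyte media. Pmepa1 thus entered the test only through the treated groups, where it was higher, and its calls against unused media carry that limit. Against unused media its fold is a lower bound, taken from the lowest signal of a detected probe on each array. Pmepa1 was at least 2.12-fold higher with the supernatant than with unused media (adjusted p = 0.0113), and its fitted log2 fold change was 1.35 (SE 0.23). With cardiomyocyte media the bound was at least 1.25-fold, and the change did not pass (adjusted p = 0.101). Without replicate 1 of cardiomyocyte media, the only array of that group on chip 1, it passed (log2 fold change 0.80, adjusted p = 0.0168). All arrays of unused media were on chip 1, so that fit sets chip 2 against chip 1. With chip as a block the change with cardiomyocyte media was 0.35 (limma adjusted p = 0.410). The rise with the supernatant was then 1.17 (adjusted p = 0.0168). The supernatant group exceeded cardiomyocyte media by 0.76 (95% interval 0.27 to 1.26), which did not pass as fitted (adjusted p = 0.0918) and passed with chip as a block (0.82, adjusted p = 0.0265).

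With 1 of the 2 supernatant arrays left out, none of Tgfb2, Skil and Pmepa1 passed against unused media (adjusted p up to 0.123), and 0 or 1 of all genes did, although the log2 fold changes stayed at 1.16 to 1.54 for Tgfb2, 1.18 to 1.34 for Skil and 1.31 to 1.35 for Pmepa1.

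**Figure D3:**
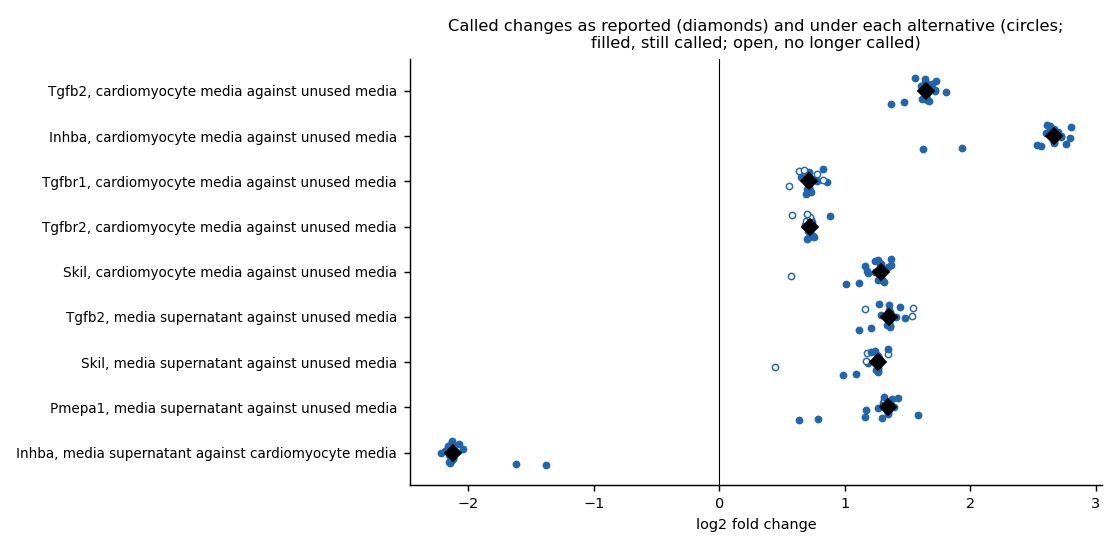
Log2 fold change of each of the 9 called differences (rows) as reported (diamonds) and under up to 23 other settings (circles, filled where still called), including leaving out each array. None changed direction, and the calls of Inhba and of Tgfb2 with cardiomyocyte media held in every setting in which they could be tested, whereas those of Tgfbr1 and Tgfbr2 were lost in 7 and 9 settings.

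Several members had more than 1 probe, and the dimmer ones did not always follow the brightest. In the fit over all 12013 detected probes, the second detected probe of Tgfbr1 gave 34.9, 56.3 and 38.6 in cardiomyocyte media, 36.9 and 43.6 in media supernatant, and 37.6, 25.8 and 23.2 in unused media. Its groups overlapped, and its log2 fold change with cardiomyocyte media was 0.40 (SE 0.20, adjusted p = 0.256). The other 2 of its 4 probes were detected on no array. With the detected probes of the gene averaged, Tgfbr1 no longer passed with cardiomyocyte media, so its call rests on the brightest probe.

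The second Tgfbr2 probe gave 14.0, 21.9 and 39.2 in cardiomyocyte media, 31.2 and 12.1 in media supernatant, and 7.45, 8.36 and 9.67 in unused media, where it was never detected. It lay higher on every treated array but did not pass with cardiomyocyte media (adjusted p = 0.138). On replicate 1 of cardiomyocyte media and replicate 2 of media supernatant it was not detected either. The probe thus entered the fit only through the other treated arrays, and its direction carries that limit. The second Tgfbr3 probe gave 207, 129 and 19.4 in cardiomyocyte media, 298 and 109.5 in media supernatant, and 171, 173 and 109.8 in unused media. Replicate 3 of cardiomyocyte media, the highest of its group on the brighter probe, was by far the lowest on this one.

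The second Skil probe was detected on 2 arrays, replicate 1 of cardiomyocyte media (27.3) and replicate 3 of unused media (26.2), and gave 7.46 to 12.5 on the other 6. Averaged with it, Skil no longer passed with cardiomyocyte media (log2 fold change 0.57, adjusted p = 0.0860) or with the supernatant (0.44, adjusted p = 0.430), so the calls of Skil rest on the brighter probe.

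**Figure D4:**
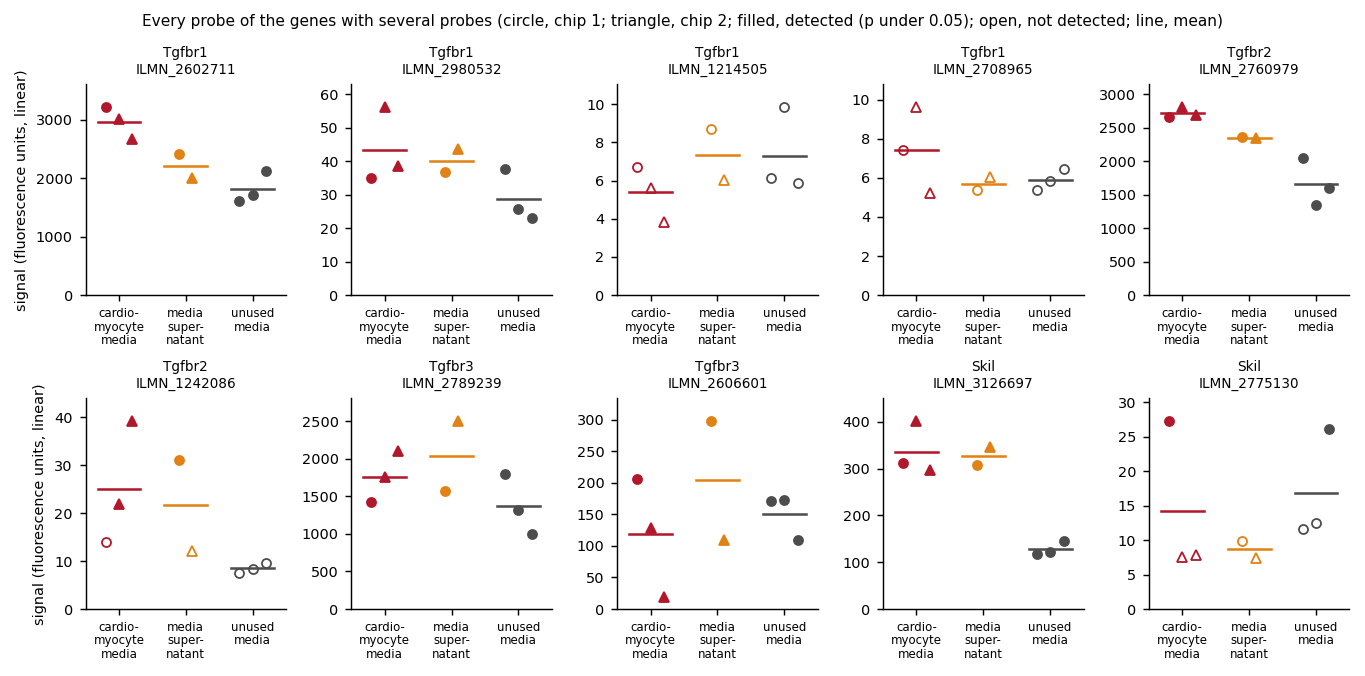
Signal (linear fluorescence units, own axis for each probe) of the 10 probes of Tgfbr1, Tgfbr2, Tgfbr3 and Skil on the arrays of cardiomyocyte media, media supernatant and unused media; open points were not detected. The brightest probe of Skil separated the treated groups from unused media, its second probe was near background on 6 of 8 arrays, and replicate 3 of cardiomyocyte media fell to 19.4 on the second Tgfbr3 probe.

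The remaining parts of the pathway were described with 4 gene lists. Of 20 activin, inhibin and co-receptor genes, 18 had a probe and 4 could be tested. None of the 4 passed in limma in any comparison or reached an unadjusted p under 0.05 (0 of 4). Of all genes tested, 25.1% reached that unadjusted level with cardiomyocyte media, 11.9% with the supernatant and 15.2% between the treated groups. Inha, the inhibin alpha subunit that pairs with beta subunits to form inhibin, had the smallest p in the comparisons with unused media, at 71.4 ± 6.75 in media supernatant (SD, n = 2) and 42.4 ± 6.14 in unused media (SD, n = 3). Its log2 fold change was 0.58 (adjusted p = 0.500 in limma).

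Of 24 SMAD signal transduction genes, 21 had a probe and 16 were tested, and none passed in limma in any comparison. At an unadjusted p under 0.05 there was 1 with cardiomyocyte media (Dab2), 2 with the supernatant (Dab2, and Ep300, chosen after its value was seen) and 1 between the treated groups (Ep300), where 25.1%, 11.9% and 15.2% of all genes tested reached that level in the same comparisons. Among them the smallest p in the comparisons with unused media was that of Dab2, an adaptor that links the receptors to SMAD proteins, at 1737 ± 148 in media supernatant (SD, n = 2), 1649 ± 43.5 in cardiomyocyte media and 1207 ± 303 in unused media (SD, n = 3 each). Its log2 fold change was 0.55 with the supernatant (limma adjusted p = 0.350) and 0.47 with cardiomyocyte media (limma adjusted p = 0.158), both against unused media. The median log2 fold change of the 16 genes was 0.03 with cardiomyocyte media and 0.20 with the supernatant.

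Of 23 genes for the storage and activation of latent TGF-beta, 15 were tested. With cardiomyocyte media 4 of them rose and 3 fell, where 4.01% of all genes tested were called higher and 4.36% lower. Those that fell were the latent TGF-beta binding protein genes Ltbp1, Ltbp3 and Ltbp4, whose products anchor the latent complex in the matrix. Ltbp1 was at 62.5 ± 13.8 in cardiomyocyte media and 211 ± 62.9 in unused media (SD, n = 3 each; log2 fold change -1.51, limma adjusted p = 0.00162), Ltbp3 fell by 0.93 and Ltbp4 fell by 0.84 on the log2 scale. Those that rose were Mmp9 (1.27, adjusted p = 0.00296), a gelatinase, Bmp1 (0.86, adjusted p = 0.0233), a protease of matrix precursors and of latency proteins, and, chosen after their values were seen, Itgav and Mmp2. With chip as a block 3 rose and 2 fell. Ltbp3 (-0.67, adjusted p = 0.0933), Itgav (1.01, adjusted p = 0.0556) and Mmp2 (0.70, adjusted p = 0.0543) no longer passed. Thbs1, the gene of the TGF-beta activator thrombospondin, likewise chosen afterwards, then passed (0.72, adjusted p = 0.0418). Its probe was near background, at 13.1 ± 7.06 in cardiomyocyte media and 7.17 ± 1.37 in unused media (SD, n = 3 each). Thbs1 was detected on no array of unused media, so it entered the test only through treated arrays, and its calls carry that limit.

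With the supernatant, 1 of these 15 genes rose and none fell, where 0.732% of all genes tested were called higher and 1.44% lower. With chip as a block 2 rose, Thbs1 being the other (limma adjusted p = 0.0165). Thbs1 was dim here too, at 22.5 ± 13.1 in media supernatant (SD, n = 2). It was not detected in unused media, so it entered this test too only through treated arrays, and its lower bound was 1.03-fold. Furin, the protease that cleaves TGF-beta precursors, was at 4480 ± 840.5 in media supernatant (SD, n = 2) and 2432 ± 105 in unused media (SD, n = 3), a log2 fold change of 0.86 (limma adjusted p = 0.0457). Ltbp1 did not pass against unused media (-0.23, adjusted p = 0.754) and was higher with the supernatant than with cardiomyocyte media (1.28, adjusted p = 0.0117). Between the treated groups 1 gene of the list was higher and none lower with the supernatant. Of all genes tested, 1.76% were called higher and 3.14% lower there. With chip as a block Ltbp4 was also higher (0.83, adjusted p = 0.0184) and Mmp9 lower (-0.88, adjusted p = 0.0403).

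Of 31 TGF-beta target genes, 22 were tested. With cardiomyocyte media 5 rose and 6 fell, where 4.01% of all genes tested were called higher and 4.36% lower. The median log2 fold change of the list was 0.03. With chip as a block 5 rose and 4 fell. Col5a1 and Tgfbi, which rose without the block (0.83 and 0.80), no longer passed with it (limma adjusted p = 0.0988 and 0.134). Spsb1 and Ccn2, which fell without the block (-0.73 and -0.67), no longer passed either (adjusted p = 0.0524 and 0.0723). The collagen genes Col1a1 (1.41, adjusted p = 0.0115) and Col1a2 (0.83, adjusted p = 0.0337) passed with the block only. All 6 were chosen after their values were seen. Acta2, the smooth muscle actin of myofibroblasts, rose by 1.78 on the log2 scale (limma adjusted p = 2.51e-04) and Col3a1, a fibrillar collagen chain, by 1.19 (adjusted p = 9.42e-04). Junb, an AP-1 subunit, rose to 435 ± 78.4 in cardiomyocyte media, against 143 ± 16.2 in unused media (SD, n = 3 each; limma adjusted p = 5.65e-04). Cdkn1a, an inhibitor of cyclin-dependent kinases, fell by 1.65 (limma adjusted p = 1.03e-04) and Sphk1, which makes sphingosine 1-phosphate, fell by 0.96 (adjusted p = 0.00435).

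With the supernatant 1 of the 22 targets rose and 2 fell, where 0.732% of all genes tested were called higher and 1.44% lower. With chip as a block 3 fell, the other being the cytokine gene Il11, chosen after its value was seen (-0.97, limma adjusted p = 0.0247). Il11 also fell with cardiomyocyte media (-1.28, limma adjusted p = 0.00632). Its signal was low, at 40.7 ± 22.3 in media supernatant (SD, n = 2), 19.5 ± 6.96 in cardiomyocyte media and 69.6 ± 7.98 in unused media (SD, n = 3 each). With the supernatant Col3a1 rose by 1.05 (limma adjusted p = 0.0136) and Cdkn1a fell by 0.88 (adjusted p = 0.0322). Angptl4, a secreted inhibitor of lipoprotein lipase, fell by 1.21 with the supernatant (adjusted p = 0.00890). Angptl4 did not pass with cardiomyocyte media (-0.18, adjusted p = 0.542). Between the treated groups 3 targets were higher and 4 lower with the supernatant, where 1.76% of all genes tested were higher and 3.14% lower. Those higher were Spsb1 (1.05, limma adjusted p = 0.00802), Cdkn1a (0.77, adjusted p = 0.0354) and Lox (1.15, adjusted p = 0.0105). Lox, chosen after its value was seen, fell with cardiomyocyte media against unused media (-1.11, adjusted p = 0.00517). Those lower were Angptl4 (-1.03, adjusted p = 0.00754), Tgfbi (-0.89, adjusted p = 0.0378), Acta2 and Junb. With chip as a block 5 were higher, Sphk1 (0.69, limma adjusted p = 0.0397) and Il11 (0.74, adjusted p = 0.0242) being added. Acta2 was at 2666 ± 195 in media supernatant (SD, n = 2) and 6833 ± 548 in cardiomyocyte media (SD, n = 3), a difference of -1.35 on the log2 scale (limma adjusted p = 0.00460), and Junb differed by -0.97 (adjusted p = 0.0217).

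**Figure D5:**
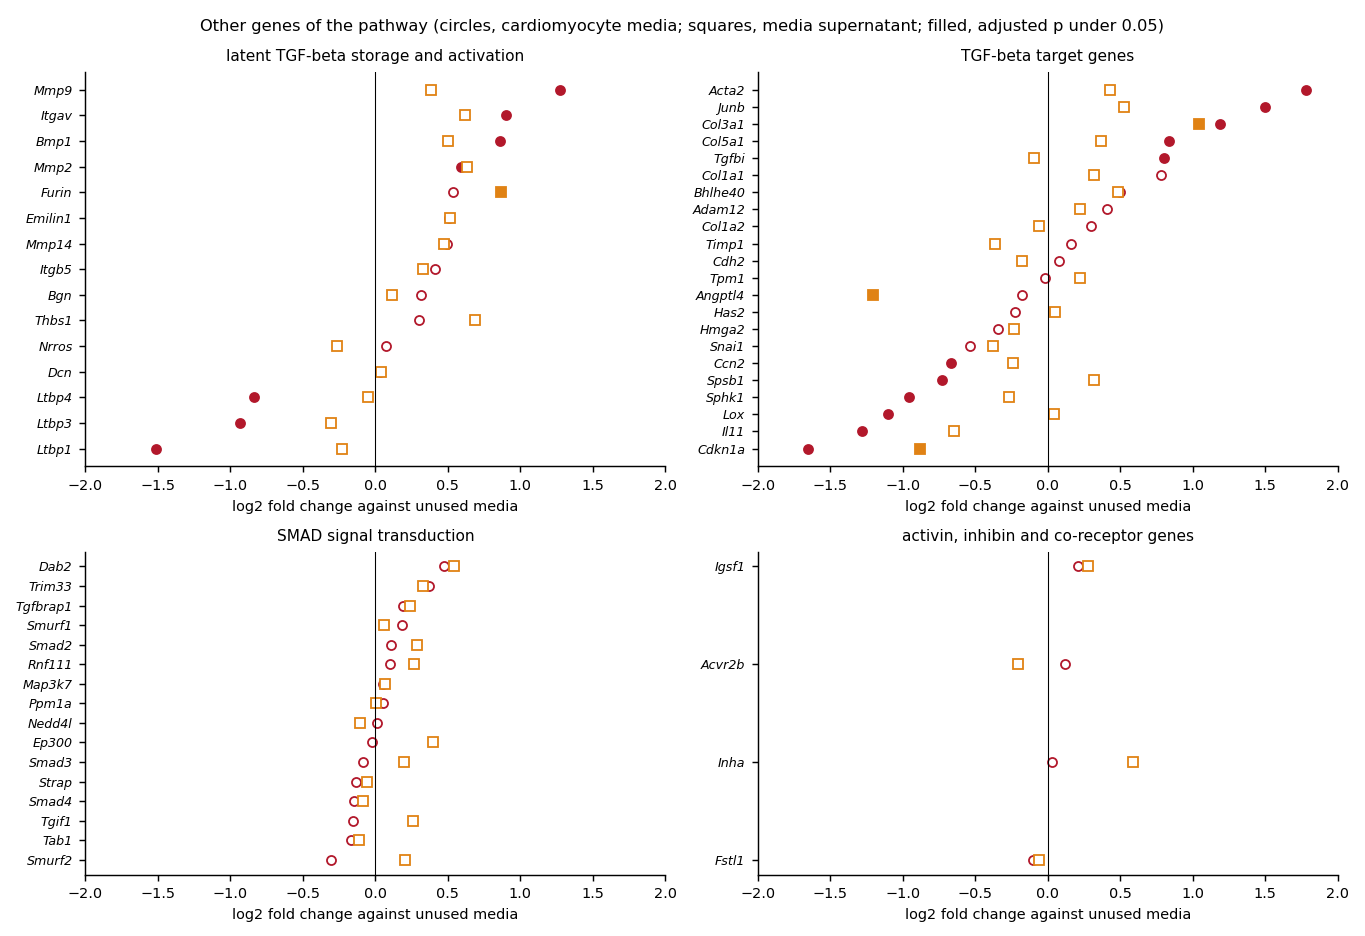
Log2 fold change against unused media of every tested gene in the 4 pathway lists, with circles for cardiomyocyte media, squares for media supernatant and filled symbols where the adjusted p was under 0.05. Filled symbols occur among the storage genes and the targets, on both sides of 0, and none among the 16 SMAD genes or the 4 activin, inhibin and co-receptor genes.

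The genes whose pattern was most like that of Tgfb2 and Inhba were found by the root mean square difference of log2 values over the 8 arrays, after each gene was centred on its own mean. For Tgfb2 these were Oasl2, an interferon-induced gene (0.21), Col3a1 (0.22) and Vav3, a guanine nucleotide exchange factor (0.23), where the median over all genes was 0.81. For Inhba they were Ccl2, a monocyte chemokine (0.22), Mfap5, a microfibril protein (0.24) and Igfbp5, a binding protein of insulin-like growth factors (0.27), where the median was 1.24. Ccl2 was at 76.8 ± 22.3 in media supernatant (SD, n = 2), 362 ± 25.1 in cardiomyocyte media and 53.4 ± 8.90 in unused media (SD, n = 3 each), so like Inhba it was far higher in cardiomyocyte media than in the other groups. Mfap5 was at 268 ± 29.8 in media supernatant (SD, n = 2), 1135 ± 132 in cardiomyocyte media and 164 ± 19.3 in unused media (SD, n = 3 each). The likeness is a description of 8 arrays that share chips and media, with no test.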

How the data were processed

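The 8 arrays were Illumina MouseRef-8 bead arrays, and each was 1 replicate of the group named in its labels. The paper's text exchanges the series of the fibroblasts and of the cardiomyocytes, and the labels were followed. For each probe the authors deposited its mean intensity in fluorescence units, not yet normalized, with the bead standard error, the bead number and a detection p-value, all from BeadStudio (3.3 per the submitters' notes). The deposited table after background subtraction and cubic spline normalization, which holds negative intensities, was an alternative only. Processing used limma 3.58.1 under R 4.3.3, with normexp background correction from the detection p-value, an offset of 16, quantile normalization and the log2 scale. Printed signals have the offset removed. Of 25697 probes, 23978 had 1 gene name (GEO's platform annotation, with 8 names updated through RefSeq) and 1719 had none. Each gene was read through the brightest probe that reached a detection p-value under 0.05 on 2 or more arrays. The model of limma took in all 8 arrays with 1 mean for each group, was tested on simulated data, and called genes at a Benjamini-Hochberg adjusted p under 0.05. The depth of an array is its 24 to 64 beads for each probe of the members, whose standard error was 3.11 to 13.3% of the intensity for tested members; the number of arrays limits the precision. Replicate numbers were not taken to pair the samples. Promoter windows and gene names were from RefSeq (GRCm38.p6), and motif letters were matched in Python 3.11.15. The genes named are all members, the genes of each list that passed against unused media (up to 6 by smallest p, or the smallest p where none passed), and the 3 genes most like Tgfb2 and Inhba. The members and lists were chosen with earlier results of these data known. Alternatives changed the background correction, offset, normalization, input, detection filter, probes, variance model, samples, chip, pairing, replicates and threshold.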

Additional observations from a re-analysis of the deposited data

Results flagged for a closer look

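The effects of the 2 treatments on Inhba differed by the test of the difference itself: media supernatant against cardiomyocyte media gave a log2 fold change of -2.12 (SE 0.20, limma adjusted p = 1.20e-04), with both supernatant arrays below all 3 arrays of cardiomyocyte media. Leaving out any 1 array gave -2.16 to -2.05 (limma adjusted p up to 0.00288), and the value was -2.15 when chip was a block and -2.21 among arrays of chip 1. Whether the spins alter unused media was not tested, since no such array was analysed.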

How the results depend on the processing

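Under 23 other settings, 8 of which left out 1 array, no called member changed direction. The calls of Inhba and Tgfb2 with cardiomyocyte media, and of Inhba between the treated groups, held wherever those genes were tested. With cardiomyocyte media against unused media, 3 members were called higher with the probes of a gene averaged and with arrays of chip 1 only, and 3 to 6 when 1 array was left out. With the supernatant against unused media none was called higher (0) with arrays of chip 1 only, where 1 of all genes passed, and 0 to 3 when 1 array was left out. With the supernatant against cardiomyocyte media, 1 member (Pmepa1) was called higher with median scaling, chip as a block and chip as a random block, and 0 were called lower where detection on all arrays was required, since Inhba was then not tested. Same-numbered arrays of cardiomyocyte and unused media did not deviate together (r = -0.18, -0.09 and -0.16 across genes). Those of media supernatant and cardiomyocyte media did (r = 0.71 and 0.49), each pair on the same chip. So did a differently numbered pair on chip 2, supernatant replicate 2 and cardiomyocyte media replicate 3 (r = 0.46). With 2 supernatant arrays their deviations mirror each other, so these r values are not separate. The numbers were not taken to pair the samples. With a replicate block, 4 members were called higher with cardiomyocyte media and 3 with the supernatant; Tgfbr1 was the member lost (adjusted p = 0.0509). Chip 1 held every array of unused media, and with 1 array of a treatment left, that array is assumed to vary like the others. Dim probes limit what Inhbb, Pmepa1, Thbs1 and the second Skil and Tgfbr2 probes can show.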
